A study of Mus musculus with 6 samples.

Results

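The genes Il4, Il5, Il13, Gata3, Il4ra and Stat6, 6 genes of the type 2 immune pathway, were followed through 6 RNA sequencing libraries of cultured mouse splenic T cells. Il4, Il5 and Il13 encode cytokines, Gata3 a transcription factor, Il4ra a receptor chain and Stat6 a signal transducer. They were taken by gene symbol, and all 6 were found once among the 52459 symbols listed. Of these, 5 reached the minimum level set for testing, 10 normalized counts in at least 3 libraries, as did 17185 symbols in all; Il5 did not. The libraries are labelled as γδ T cells, T lymphocytes whose antigen receptor is made of γ and δ chains, from spleens of C57BL/6 mice. Every culture ran for 3 days on plates carrying anti-CD3 and anti-CD28, antibodies that activate T cells, and every culture received IL-23 and IL-1β, which favour production of interleukin 17. Control cultures (n = 3 libraries) had no further agent; DON cultures (n = 3 libraries) had DON added, an abbreviation left unexplained in the labels. The age and sex of the mice and any pooling of spleens are not given in the sources used here.

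Type 2 immunity is the arm of the immune response directed at helminths, and it drives allergy. IL-4 steers T cells toward the type 2 state and B cells toward IgE, IL-13 acts on epithelium, smooth muscle and macrophages, and IL-5 sustains eosinophils. IL-4 and IL-13 both signal through receptors that contain the IL-4 receptor α chain, encoded by Il4ra, and activate STAT6, which in T cells raises Gata3. GATA3 in turn acts on the locus in which Il4, Il13 and Il5 lie side by side. Some γδ T cells, like T helper 2 cells, innate lymphoid cells of type 2 (ILC2), basophils and mast cells, can make these cytokines, whereas the conditions used here are those of type 17 cells.

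Each library held between 33715873 and 40840099 recovered units, where a unit is the smallest step of the deposited values and need not be 1 read. The defining γδ gene Trdc, the δ chain constant region, was present at 1182 ± 35.3 normalized counts per kilobase of transcript for controls and 1152 ± 39.0 for DON (SD, n = 3 each). Genes typical of αβ T cells were higher. Trac, the α chain constant region, stood at 11646 ± 133 and 12865 ± 920, and Cd4, the helper T cell coreceptor, at 4304 ± 87.8 and 4358 ± 133 per kilobase. The levels below belong to the whole culture.

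The 3 cytokine genes lie on chromosome 11 of GRCm38 (mm10), in the order Il4, Il13, Il5. Il4 (ENSMUSG00000000869.12) spans 53602982 to 53618669 on the minus strand, Il13 (ENSMUSG00000020383.1) spans 53631324 to 53634702 on the minus strand, and Il5 (ENSMUSG00000036117.2) spans 53720794 to 53725106 on the plus strand. The gap from Il4 to Il13 is 12.7 kb and that from Il13 to Il5 is 86.1 kb. Their promoters are printed because GATA3, STAT6 and NFAT, the calcium-driven factor of T cell receptor signalling, are known to act in this locus, and because the cytokine genes differed from each other in these libraries. Each runs 5′ to 3′ on the gene's strand over 300 bases, 250 before the RefSeq start and 50 from it on, in RefSeq annotation of GRCm38.p6. All 6 genes had such a window, and Il4 had 2, of which the one at the outer end of the gene is shown (chr11:53618616-53618915). The others are chr11:53634653-53634952 for Il13 and chr11:53720544-53720843 for Il5. Capitals mark words of 3 kinds on either strand: the GATA factor words (AGATAA or AGATAG, and TGATAA or TGATAG), the NFAT core (GGAAA), and the STAT6 word, which is TTC followed by any 4 bases and then by GAA.
Il4: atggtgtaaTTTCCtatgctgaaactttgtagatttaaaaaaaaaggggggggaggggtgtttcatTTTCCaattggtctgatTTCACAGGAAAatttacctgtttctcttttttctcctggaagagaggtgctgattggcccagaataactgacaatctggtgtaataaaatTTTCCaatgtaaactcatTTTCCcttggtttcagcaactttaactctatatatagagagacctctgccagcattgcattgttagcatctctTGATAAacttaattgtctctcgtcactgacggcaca
Il13: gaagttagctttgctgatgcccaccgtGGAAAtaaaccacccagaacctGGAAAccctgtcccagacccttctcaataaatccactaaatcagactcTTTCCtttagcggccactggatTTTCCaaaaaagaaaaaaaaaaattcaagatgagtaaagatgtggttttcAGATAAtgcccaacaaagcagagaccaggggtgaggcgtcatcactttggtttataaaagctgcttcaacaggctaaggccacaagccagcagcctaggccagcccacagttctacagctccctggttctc
Il5: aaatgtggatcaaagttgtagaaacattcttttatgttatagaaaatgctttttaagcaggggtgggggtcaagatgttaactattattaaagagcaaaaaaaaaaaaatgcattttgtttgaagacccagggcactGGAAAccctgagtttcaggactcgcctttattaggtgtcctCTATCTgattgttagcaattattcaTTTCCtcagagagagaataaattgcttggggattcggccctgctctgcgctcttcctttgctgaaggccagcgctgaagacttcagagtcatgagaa

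Each of the 3 windows held 1 GATA factor word. In Il13 it covered bases -81 to -76 from the start, in Il5 bases -72 to -67, and in Il4 bases 15 to 20 past the start. The NFAT core occurred 5 times in the Il4 window, 4 times in that of Il13 and 2 times in that of Il5. The Il4 window alone of the 3 held the STAT6 word, at bases -167 to -158, and 1 NFAT core, at bases -161 to -157, overlapped that word. The AP-1 word TGANTCA, also searched, was in none of the 3. Among 32851 RefSeq windows of this length, 29.8% held a GATA factor word, 61.3% an NFAT core, 6.95% the STAT6 word and 7.81% the AP-1 word. A match of letters is not a binding site.

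Il13 transcripts were lower in DON. Control libraries 1 to 3 held 217, 215 and 190 normalized counts of Il13, and DON libraries 1 to 3 held 52.6, 22.3 and 53.7. The groups did not overlap, as for 31.4% of all tested genes (15.7% lower in DON), and DON library 2 was the lowest. The means were 207 ± 15.2 and 42.9 ± 17.8 (SD, n = 3 each), so that the DON mean was 20.7% of the control mean. On the log2(normalized count + 1) scale Il13 fell by 2.35 (SE 0.35, 95% interval -3.15 to -1.54, limma adjusted p = 0.0109). It was the 1 of 5 tested type 2 genes that passed. Of all 17185 tested genes 6.45% passed, made up of 4.15% lower and 2.3% higher in DON. A larger fall was seen for 72 of the 713 genes that fell. Without control library 1, 2 or 3 the adjusted p was 0.0572, 0.0584 and 0.0512, with log2 changes from -2.41 to -2.31. In these bulk libraries fewer cells of a type and less RNA per cell cannot be told apart.

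Il4, the neighbour of Il13, was scarce and variable. Control libraries 1 to 3 held 45.0, 23.0 and 14.4 normalized counts, and DON libraries 1 to 3 held 42.1, 18.7 and 30.4. The groups overlapped, and the highest and lowest values were both in controls. The means were 27.5 ± 15.8 and 30.4 ± 11.7 (SD, n = 3 each), a log2 change of 0.22 with an SE of 0.52 that did not pass (limma adjusted p = 0.828). The 95% interval of the log2 change, -0.98 to 1.42, corresponds to 0.506 to 2.67 times the control level. A change of either direction within that range is therefore not excluded, and the interval is not a limit of detection.

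Il5, the third cytokine gene of the locus, was hardly detected. Control libraries 1 to 3 were listed at 0, 18.7 and 0 normalized counts, and DON libraries 1 to 3 at 2.87, 0 and 3.04. The value of control library 2 corresponded to 17 recovered units and those of DON libraries 1 and 3 to 3 units each. A count of 0 allows up to 3 units, or 2.68 to 3.08 normalized counts in the 3 libraries concerned, for counting error only. All but 1 library were therefore at or below that limit, and no fold change is given.

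**Figure D1:**
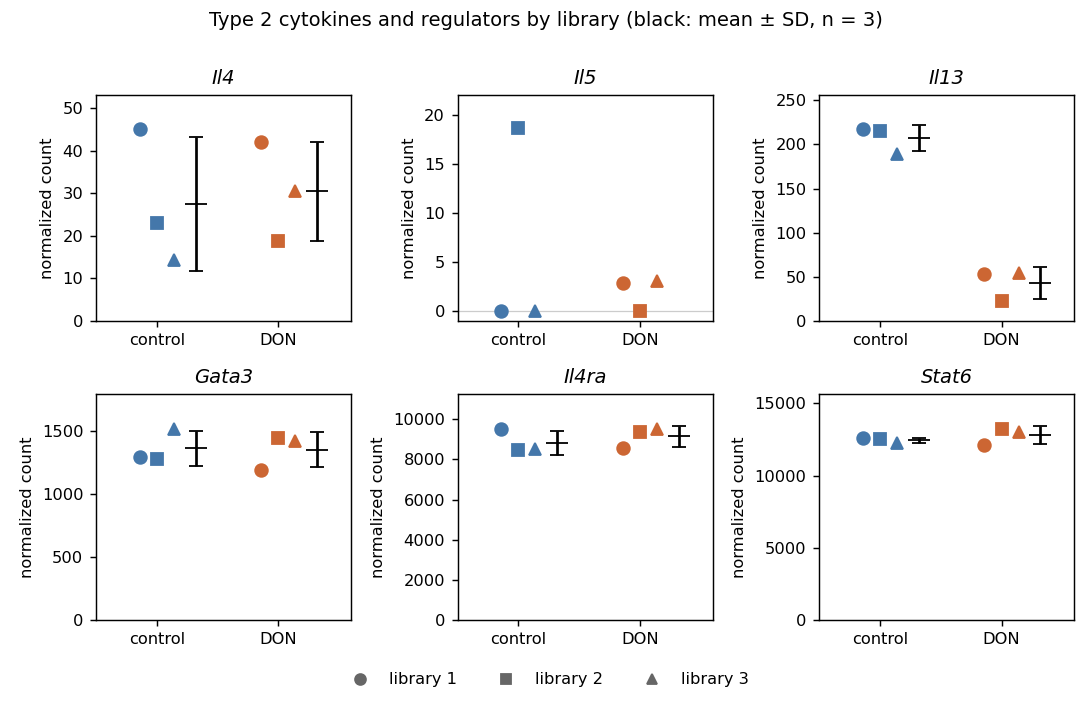
Normalized counts (vertical axes, from 0 or just below it) of the 6 genes in the 3 control and 3 DON libraries, with the mean and SD in black (not drawn for Il5). For Il13 the DON libraries, from 22.3 to 53.7, lie below the controls, from 190 to 217; for the other 5 genes the groups overlap.

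Gata3, which encodes the factor that directs type 2 gene expression and is also needed for T cell development, was expressed well above the cytokine genes and showed no detectable change. Gata3 (ENSMUSG00000015619.10, chromosome 2, 9857078 to 9890034) had 1287, 1273 and 1516 normalized counts in controls 1 to 3, while DON libraries 1 to 3 had 1188, 1440 and 1416. The ranges of the groups overlapped over most of their width. The means were 1359 ± 136 and 1348 ± 139 (SD, n = 3 each), and the log2 change of -0.01 had a 95% interval of -0.27 to 0.25 (limma adjusted p = 0.961). The sign of this small change turned with equal library totals (log2 0.00256) and with quantile normalization (0.00700).

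Il4ra encodes the receptor chain shared by IL-4 and IL-13, and Stat6 the transducer downstream of it; neither passed the test. Il4ra (ENSMUSG00000030748.9, chromosome 7, 125552120 to 125579474) had 9526, 8448 and 8546 normalized counts in controls 1 to 3, while DON libraries 1 to 3 had 8561, 9387 and 9539. Control library 1 lay with the upper DON libraries and DON library 1 with the lower controls. Il4ra differed by 0.05 on the log2 scale, with a 95% interval of -0.12 to 0.22 (limma adjusted p = 0.700). Stat6 (ENSMUSG00000002147.18, chromosome 10, 127642986 to 127660957) had 12587, 12522 and 12247 normalized counts in controls 1 to 3, while DON libraries 1 to 3 had 12127, 13251 and 13036. DON library 1 was the lowest of the 6 and the other DON libraries the highest. Stat6 differed by 0.04 on the log2 scale, with a 95% interval of -0.09 to 0.17 (limma adjusted p = 0.709). For both genes the intervals exclude a change of the size seen for Il13.

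Annotated genes that overlap these were less abundant than their partners. Stat6 shares 40 bases with Nab2, a gene on the opposite strand that stood at 1163 normalized counts in controls and 1032 in DON. The antisense gene Gm13256 inside Gata3 stood at 30.2 and 26.2, and Gm44876 inside Il4ra at 74.0 and 78.2. Gm12214, antisense to Il5, was listed at 0 in all 6 libraries. The strand setting of the counting was not given in the sources used here, so reads of overlapping genes may not be separate.

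Per kilobase of the longest annotated transcript, the order of the control levels was Stat6, Il4ra, Gata3, Il13, Il4 and Il5. Stat6 stood at 3299 ± 47.7 normalized counts per kilobase, Il4ra at 1682 ± 113 and Gata3 at 423 ± 42.3 (SD, n = 3). Il13 stood at 172 ± 12.6, Il4 at 45.4 ± 26.1 and Il5 at 4.05 ± 7.01. No 2 neighbours in this order overlapped between control libraries. In DON, Stat6, Il4ra and Gata3 kept these places at 3392 ± 158, 1743 ± 100.1 and 419 ± 43.3, while Il13 stood at 35.6 ± 14.8 and Il4 at 50.3 ± 19.3. The libraries of Il13, from 18.5 to 44.6, and of Il4, from 31.0 to 69.6, overlapped there. With the union of all annotated exons as the length, Il4 stood at 24.8 in DON, below Il13. The levels of Il13 and Il4 were thus apart in controls and could not be ordered in DON.

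The log2 ratio of Il13 to Il4 within a library was 2.25, 3.17 and 3.63 in controls 1 to 3, while DON libraries 1 to 3 had 0.32, 0.24 and 0.80. The groups did not overlap, and the mean difference was -2.56 (exact two-sided permutation test, p = 0.10, the smallest that 3 against 3 libraries allow; 0.186 adjusted over 13 ratios computed). Measured against Trdc, Il13 differed by -2.31 on the log2 scale, and against the sum of 10 core T cell genes by -2.57 (exact p = 0.10 for each). Il4 measured against the same sum differed by -0.00319 (exact p = 1). Gata3, Il4ra and Stat6 against that sum differed by -0.23, -0.17 and -0.18, with no overlap between groups (exact p = 0.10 each). The sum itself ranged from 123353 to 125243 normalized counts in controls and from 134767 to 151777 in DON, so the denominator moved between groups. The levels of Gata3, Il4ra and Stat6 alone overlapped, so their separation came with the sum. Levels did not overlap for 31.4% of all tested genes, and no such share was computed for ratios. The log2 ratio of Gata3 to Tbx21, which encodes T-bet, the factor of type 1 cells, averaged 1.49 ± 0.22 for controls and 1.38 ± 0.15 for DON, with overlapping libraries (exact p = 0.6).

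Of 11 tested genes around the cytokines, 1 passed and rose, a count near the 6.45% of all tested genes that passed. Within 200 kb of the interval from Il4 to Il5, 27 other genes were listed, and 11 of them reached the minimum; the other 10 did not pass. Kif3a, which encodes a kinesin motor subunit and lies next to Il4, rose from 1010 to 1459 normalized counts (log2 change 0.53, limma adjusted p = 0.0162). Rad50, the DNA repair gene between Il13 and Il5 whose introns are known to hold the control region of the locus, stood at 3376 and 3022 (log2 -0.16, limma adjusted p = 0.272). Irf1, an interferon response factor beyond Il5, stood at 13437 and 13376 (log2 -0.01). The septin gene Sept8 had a log2 change of -0.37, Uqcrq, a subunit of respiratory complex III, 0.24, and Aff4, an elongation factor subunit, -0.15. Slc22a5, a carnitine transporter gene, had -0.06, and Gm12216 and Gm17334 had 0.31 and -0.04. Gdf9 and Sowaha, at 12.9 and 10.1 normalized counts in controls, had 0.41 and 0.17 (for Gdf9 the mean was lower in DON, at 11.8), and none of these 8 genes passed.

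**Figure D2:**
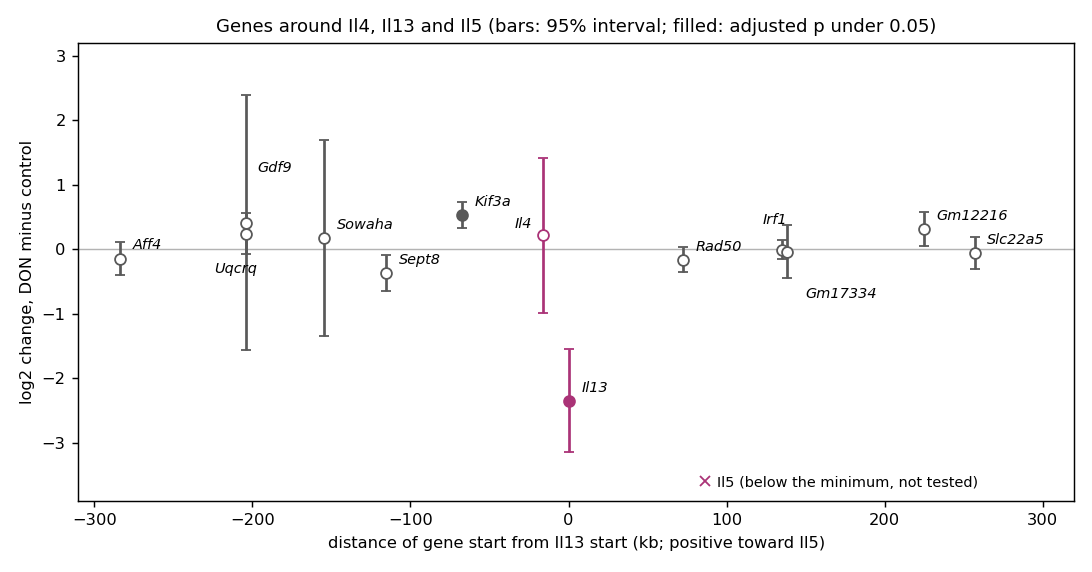
Log2 change between DON and control (vertical axis) with its 95% interval for the tested genes around the cytokine locus, by the distance of each gene's start from that of Il13 in kb (horizontal axis). Il13 stands at -2.35, apart from its neighbours, which lie between -0.37 and 0.53; Kif3a is the other filled point, and Il5 is marked with a cross as not tested.

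Around the 6 genes, 7 lists of pathway genes were counted, holding 99 symbols of which 88 were tested. Of the 88, 2 rose and 16 fell, against 2.3% higher and 4.15% lower among all tested genes, and their median log2 change was -0.16 against 0.00 for all tested genes. These counts moved with the setting, as did the share of all tested genes that passed. Without DON library 1, 5 rose and 30 fell, where 18.8% of all genes passed. With DON library 1 as the only DON library 9 fell (2.08% of all genes passed), and without DON library 2 or 3, 7 and 9 fell (2.28% and 2.23%). Without control 1, 2 or 3, 4 fell each time (1.79%, 1.54% and 1.51%), and with no variance trend in limma 4 fell (2.11%). The edgeR test, by which 5.81% of all genes passed, gave 2 higher and 15 lower. DESeq2, by which 13.2% passed, gave 2 higher and 23 lower. The GC content correction gave 4 higher and 19 lower, beside 739 higher and 746 lower among all tested genes. Of the 18 genes, 3, Ccl22, Chil3 and Maf, passed under all 18 alternative settings.

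Receptor chains of the type 2 cytokines were split. Il2rg, the common γ chain, which pairs with the IL-4 receptor α chain, rose from 25079 ± 597 to 32104 ± 2721 normalized counts (SD, n = 3 each; log2 change 0.35, limma adjusted p = 0.0292). Il5ra, the ligand-binding chain for IL-5, fell from 704 ± 81.9 to 365 ± 87.9 (log2 -0.97, limma adjusted p = 0.0312). Csf2rb, the β chain that IL-5, IL-3 and GM-CSF receptors share, and its near-identical copy Csf2rb2 had log2 changes of -0.30 and -0.56 (limma adjusted p = 0.0433 and 0.0308), and reads may be divided between the copies. Il2rg and Il5ra passed under 8 of the 18 alternative settings each, Csf2rb under 7 and Csf2rb2 under 11. Il13ra1, the chain that binds IL-13 together with the IL-4 receptor α chain, stood at 179 ± 34.4 and 127 ± 78.3 and did not pass. Il13ra2, the decoy receptor, was listed at 0 throughout.

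Of 16 genes of kinases, signal transducers and feedback, 2 fell and 14 did not pass, where 4.15% of all tested genes fell. Irs2, an adaptor that the IL-4 receptor recruits, fell by 0.39 on the log2 scale (limma adjusted p = 0.0187), and passed under 11 of the 18 settings. Cish, a cytokine-induced inhibitor, fell by 1.39 (limma adjusted p = 0.0487), and it passed under 5 of the 18 settings, edgeR not among them. Jak1, the kinase of the IL-4 receptor α chain, stood at 54579 and 61677 normalized counts (log2 0.18) and Stat3 at 15461 and 15337; neither passed. Alarmins are the epithelial cytokines that trigger type 2 responses. Among them and their receptors, Il17ra, a chain of the IL-25 receptor, rose (log2 0.30, limma adjusted p = 0.0216), as did 2.3% of all tested genes. Il17ra passed under 10 of the 18 settings. The 6 others tested did not pass. Il7r, which pairs with the TSLP receptor chain, stood at 51628 and 42253 normalized counts (log2 -0.30, limma adjusted p = 0.0756). The genes of IL-25 and TSLP themselves were listed at 0.

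Other cytokine genes linked to type 2 cells were few. Csf2, which encodes GM-CSF, and Il10 fell, with log2 changes of -1.14 and -1.73 (limma adjusted p = 0.0150 and 0.0267). Csf2 passed under 14 of the 18 alternative settings and Il10 under 10. Il6 did not pass at 146 and 109 normalized counts. Il9, Il24 and Il31 were listed at 0, and Il3 and Areg did not reach the minimum.

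Transcription factors known to promote type 2 cytokine expression fell in 4 of 25 cases, where 4.15% of all tested genes fell. The other 21 did not pass. Maf, which acts on the Il4 promoter, had 1711, 1602 and 1620 normalized counts in controls 1 to 3, while DON libraries 1 to 3 had 1012, 1042 and 963. Its groups were well apart (log2 change -0.71, SE 0.08, limma adjusted p = 0.00405). Irf4, which cooperates with NFAT, had -0.61, Junb, an AP-1 subunit found in T helper 2 cells, -0.32, and Bhlhe41, a repressor of the basic helix-loop-helix family, -0.53 (limma adjusted p = 0.0106, 0.0390 and 0.0400). Irf4 passed under 15 of the 18 alternative settings, Bhlhe41 under 8 and Junb under 7, and Junb did not pass with equal library totals or quantile normalization. Tcf7, which promotes Gata3 in T helper 2 cells, stood at 70521 and 80380 (log2 0.19) and Kmt2a, a histone methyltransferase gene, at 63950 and 56151 (log2 -0.19), and neither passed. Of 16 factors known to oppose type 2 expression, 0 passed in limma, 0 in edgeR and 1 in DESeq2 (by which 13.2% of all genes passed), and 4 had an unadjusted limma p under 0.05, as did 25.5% of all tested genes. Stat4, which transmits IL-12 signals, had a log2 change of -0.00262.

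Genes induced by IL-4 and STAT6 in lymphocytes or myeloid cells fell in 6 of 21 cases, where 4.15% of all tested genes fell. The other 15 did not pass, and the median log2 change of the list was -0.44. Ccl22, a chemokine that attracts cells bearing CCR4, had 8296, 8819 and 8181 normalized counts in controls 1 to 3, while DON libraries 1 to 3 had 3687, 4055 and 3863. No DON library came near a control (log2 change -1.12, SE 0.07, limma adjusted p = 0.00022). Ccr4, its receptor on T helper 2 and other T cells, fell by 1.04 (limma adjusted p = 0.0334), and passed under 7 of the 18 settings. Chil3, a chitinase-like gene of myeloid cells, had -1.07, Ighg1, the IgG1 constant region, -1.61, and Fcer2a, the low-affinity IgE receptor of B cells, -0.91 (limma adjusted p = 0.00277, 0.0122 and 0.0231). Ighg1 passed under 15 of the 18 settings and Fcer2a under 12. Cish, counted above, was the sixth. Socs1, an inhibitor of cytokine signalling, stood at 4397 and 3804 (log2 -0.21) and did not pass. Most of the 15 were lower in DON too. Among them, Ccl17 stood at 46.3 and 11.9 (log2 -1.99, limma adjusted p = 0.0532). Mgl2 stood at 38.8 and 3.04 (log2 -4.15, limma adjusted p = 0.0520) and was listed at 0 in DON libraries 1 and 2. Not all of the 15 were lower. Arg1 stood at 41.3 and 76.7 (log2 0.96), Klf4 at 179 and 261 (log2 0.56) and Pparg at 87.5 and 117 (log2 0.41). These were higher in DON and did not pass either.

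**Figure D3:**
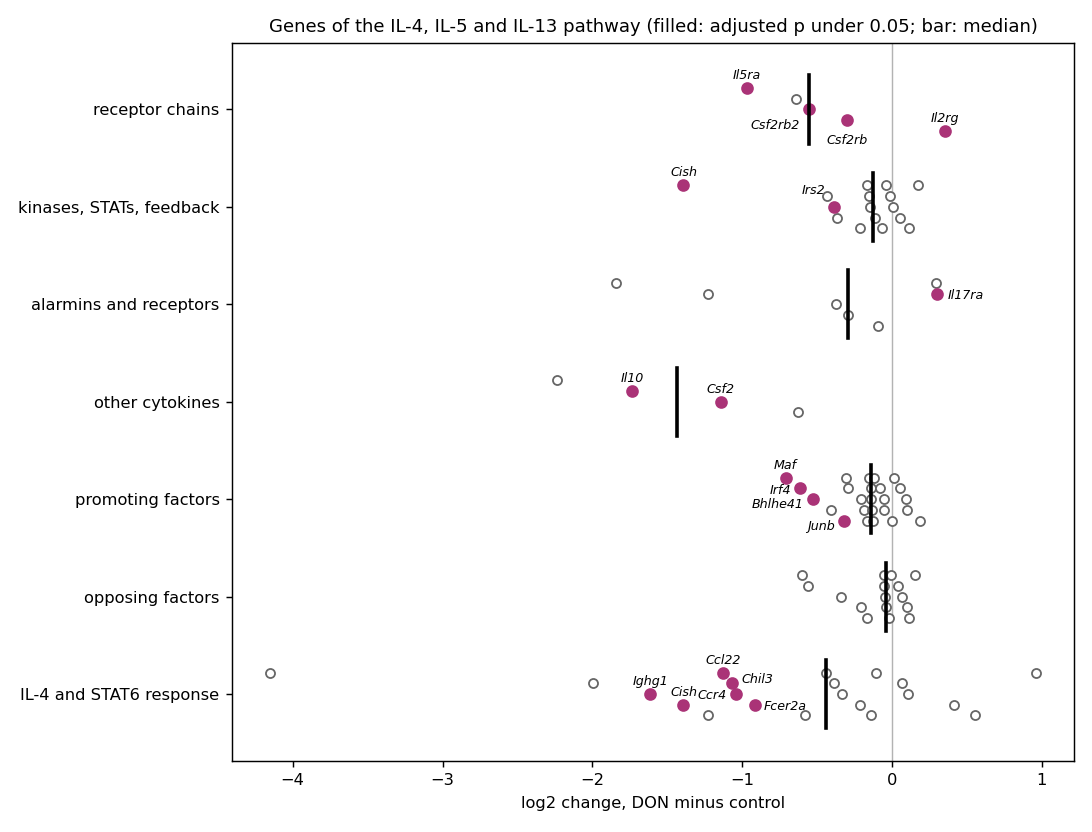
Log2 change between DON and control (horizontal axis) of each tested gene in 7 lists around IL-4, IL-5 and IL-13, filled where the limma adjusted p was under 0.05, with a bar at the list's median. Filled points lie mostly below 0, with 2 above it (Il2rg and Il17ra), and the list of opposing factors has none.

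Markers of other cells that make or answer type 2 cytokines moved in the same libraries. Counts of markers that passed stand beside 4.15% lower and 2.3% higher among all tested genes. The summed level of 11 basophil markers ranged from 2500 to 2648 normalized counts in controls and from 1751 to 1856 in DON. Of 10 tested, 4 fell. The most abundant marker, the integrin gene Itga2, which other cells express too, stood at 733 and 733. Il3ra, the IL-3 receptor α chain, at 308 and 411 (log2 0.42) and Cd200r3 at 153 and 195 (log2 0.33) did not pass. Hdc at 187 and 111 (log2 -0.80), Gata2 at 139 and 87.6 (log2 -0.72) and Fcer1a at 30.4 and 17.1 (log2 -0.83) did not pass either. Cpa3, Ms4a2 and the basophil proteases Prss34 and Mcpt8 fell, and Mcpt8 had 291, 262 and 427 in controls 1 to 3 and 79.4, 78.5 and 98.3 in DON libraries (log2 change -1.90, limma adjusted p = 0.00453). The groups lay apart for Mcpt8, and the log2 ratio of Il13 to Mcpt8 averaged -0.62 ± 0.47 for controls and -1.07 ± 0.62 for DON, with overlapping libraries (exact p = 0.5). The ratio of Il4 to Mcpt8 averaged -3.64 ± 1.08 for controls and -1.52 ± 0.57 for DON (exact p = 0.10; SD, n = 3 each). Summed eosinophil markers ranged from 2511 to 2726 in controls and from 817 to 1278 in DON; 5 of 9 fell, among them Epx and Prg2, which encode granule proteins (log2 -3.65 and -2.08), and Il5ra, counted above among the receptors. Ear1 and Ear6, also among the 5, belong to a family of close copies whose reads may be divided.

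Summed ILC2 markers ranged from 2704 to 2851 in controls and from 2221 to 2614 in DON, with Rora, at 1822 and 1679, the most abundant. None of 7 tested passed in limma, 0 passed in edgeR and 1 in DESeq2, and 2 had an unadjusted limma p under 0.05, a share close to the 25.5% of all tested genes. Il1rl1, the IL-33 receptor of ILC2, stood at 186 ± 30.7 and 82.1 ± 29.2 (log2 -1.23, limma adjusted p = 0.0572). Mast cell markers summed to 3748 to 4087 in controls and 4425 to 4709 in DON, nearly all from Kit and Fcer1g, which other cells express too, while the protease Cma1 stood at 26.0 and 32.1 and did not pass, the receptor gene Mrgprb1 was at 0 and the proteases Mcpt4, Tpsb2 and Tpsab1 were below the minimum. For the counts that follow, 4.15% of all tested genes were lower and 2.3% higher. B cells, which carry the IL-4 receptor, had marker sums of 69069 to 72225 in controls and 48781 to 55381 in DON. Of 12 markers, 11 were lower, Fcer2a among them. Neutrophil markers summed to 11269 to 11947 and 2423 to 2869, with 7 of 9 lower. The other 2, Csf3r at 444 and 503 and Retnlg at 72.4 and 89.4, were higher in DON and did not pass. The sum therefore does not stand for every marker of the list. Macrophage markers summed to 31974 to 32635 and 33201 to 36601, with 5 of 11 higher and 1 lower. Markers of αβ T cells summed to 69785 to 73594 and 72059 to 81793, and those of γδ T cells to 10510 to 10908 and 8386 to 8846, with 2 of 7 lower, Cd163l1 and Blk; Blk is also a B cell gene. The part of these cells in the levels of Il13, its receptors and the response genes was not tested.

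**Figure D4:**
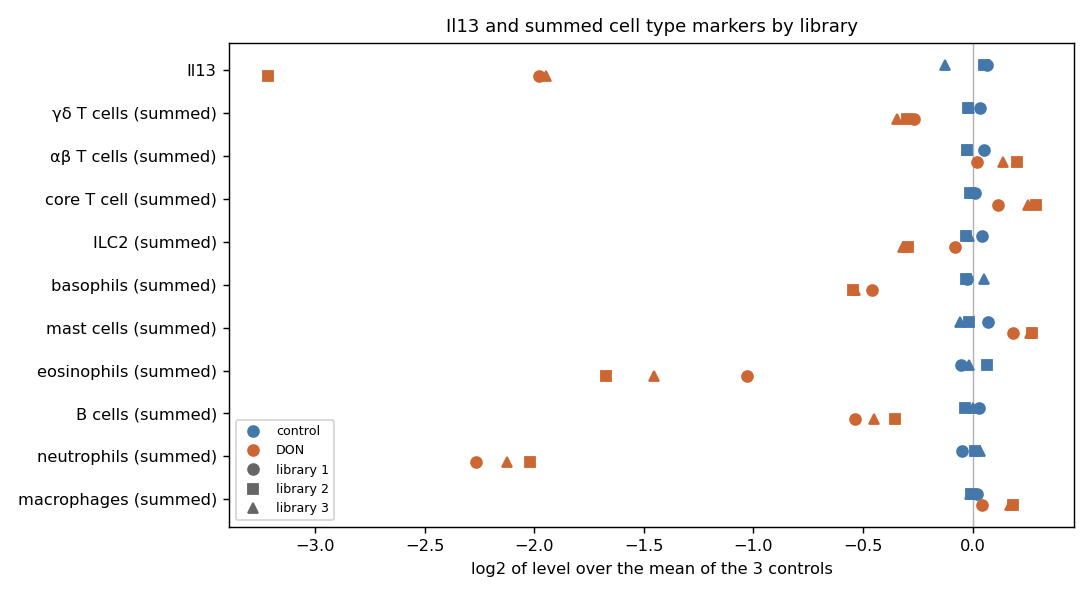
Log2 of the level in each library over the mean of the 3 controls (horizontal axis) for Il13 and for the summed markers of 10 cell types. Il13, neutrophil and eosinophil sums lie farthest below 0 in DON. Basophil, B cell, γδ T cell and ILC2 sums lie less far below it, and core T cell sums lie above it.

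The genes whose pattern over the 6 libraries was most like that of Il13 were sought among 13539 tested genes with a mean of at least 50 normalized counts in controls, by the root mean square difference in log2 level after subtracting the control mean. The nearest was Dach1, a transcriptional cofactor gene, at 0.22, followed by Clec5a, a myeloid lectin receptor, at 0.25, Spc25, a kinetochore subunit, at 0.26 and Neil3, a DNA glycosylase, at 0.27. Dach1 stood at 68.8 ± 15.7 normalized counts in controls and 12.6 ± 4.79 in DON, Clec5a at 167 ± 37.5 and 31.0 ± 14.2 (SD, n = 3 each). All 4 fell (limma adjusted p from 0.0157 to 0.0335) and had their lowest value in DON library 2, as Il13 did. For Il4 the nearest of 13540 were 4930506C21Rik at 0.21, Glis2, a zinc finger factor gene, at 0.26, and Gm28036 and Gm11579 at 0.28 each. None of these 4 passed the test, and each overlaps another annotated gene, so their reads may be shared. The likeness rests on 6 libraries in 2 groups, so genes that fell by a like amount score as near to Il13, and it says nothing of shared control.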

How the data were processed

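The mRNA libraries were made from Trizol-extracted RNA with a VAHTS kit, per the labels' protocols; the submitters' processing notes name HISAT2, StringTie, mm8 and mm10, with no role or version. The deposited values are normalized counts per the file headers, treated as a signal per gene; the authors' normalization method was not given in the sources used here. From the values themselves, all those above 0 were whole multiples of 1 step per library (100% within a tolerance of 0.001), as counts divided by 1 factor would be, and dividing by the step gave recovered units. At 4 units there were 854 to 903 genes per library, against 382 to 446 at 3, so a unit need not be 1 read.

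The test was limma 3.58.1 in R 4.3.3 (lmFit and eBayes, variance trend on, both directions tested) on log2(normalized count + 1), over 17185 genes with at least 10 normalized counts in at least 3 libraries, with Benjamini-Hochberg adjustment over all of them and a threshold of 0.05. This scale understates the change of low genes. The fit was tested on simulated counts with known changes, placed only in genes more abundant than Il4 and Il5. That test therefore says nothing about genes at their level. The alternatives were edgeR 4.0.16 (quasi-likelihood, 360 genes higher and 638 lower) and DESeq2 1.42.0 on recovered units, other scalings, filters and pseudocounts, a GC content correction, a replicate block and left-out libraries. Ratios within libraries were compared by exact permutation tests. Annotation and transcript lengths came from GENCODE M21, in which 49035 of the 52550 listed genes had the same identifier and position, and promoters from RefSeq.

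The members and gene lists were chosen with earlier results of these data known. Named genes were the 6 members and, in each pathway list, up to 6 genes past the threshold and the 2 most abundant. All tested locus neighbours, up to 3 of the most abundant markers per cell list and the 4 genes most like each tested cytokine gene were named too. Mcpt8, Cpa3, Ms4a2, Cd200r3, Il13ra1, Il1rl1, Ear1, Ear6, Arg1, Klf4, Pparg, Csf3r and Retnlg were added after their values were seen. Il33, Ccl17, Mgl2, Fcer1a, Hdc and Gata2 were added in the same way. So were genes named as listed at 0 or below the minimum. A gene that the rule would name is not reported here. Whether the 3 libraries of a group stem from different mice is unstated in the labels, and the p-values therefore describe library-to-library spread that may be technical. With 3 against 3 libraries no exact permutation p can be below 0.10.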

Additional observations from a re-analysis of the deposited data

How the results depend on the processing

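Il13 kept its direction under all 18 alternatives (log2 change -2.56 to -1.94) and passed the threshold in 15, the exceptions being each control left out (without one library, adjusted p 0.00344 to 0.0584). With edgeR the adjusted p was 0.0109, with DESeq2 5.29e-09, and with DON library 1 alone against the controls 0.0195 (log2 -1.96), where the lone library is assumed to vary like the others. Il4, Gata3, Il4ra and Stat6 passed under none. Their signs were not fixed: leaving out single libraries gave -0.15 to 0.64 for Il4, -0.062 to 0.076 for Gata3, 0.02 to 0.11 for Il4ra and 0.01 to 0.08 for Stat6, Gata3 turned with equal totals (0.00256) and quantile normalization (0.00700), and with DON library 1 alone Il4ra stood at -0.044 and Stat6 at -0.038. Il5, with no filter, had an adjusted p of 0.976. Over all genes 395 rose and 713 fell. The numbers higher were 220 with no filter, 72 with no variance trend, 48 with the replicate block, 739 after the GC correction (beside 746 lower), 61 with DON library 1 alone, 790 in DESeq2 and 65 to 1119 with 1 library left out, the most without DON library 1. The numbers lower were 291 with no variance trend, 240 with the replicate block, 297 with DON library 1 alone, 1348 in DESeq2 and 193 to 2118 with 1 library left out. The cause was not tested. Deviations of same-numbered libraries correlated at -0.06 to -0.05, which gives no sign of pairing by replicate number. With 3 libraries per group this cannot show that they were unpaired. With the replicate block Il13 had a limma adjusted p of 0.0360. With the block 6 pathway genes fell. With a library left out, the difference in log2 ratio ran from -2.95 to -2.25 for Il13 to Il4, from -2.81 to -2.13 for Il13 to core T cell genes and from -0.72 to -0.098 for Il13 to Mcpt8. It turned sign for Il4 to core T cell genes (-0.37 to 0.41) and for Gata3 to Tbx21 (-0.19 to 0.014, above 0 without control 3), as for Il4 to Il5 (-1.15 to 1.46) and Il5 to core T cell genes (-1.05 to 1.11). Kif3a was also the 1 neighbour that passed within 100 kb. Depth limits Il4 and Il5, which had 14 to 46 and 0 to 17 recovered units per library.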
